A study of Mus musculus with 6 samples.

Results

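The set of mitotic spindle, kinetochore and checkpoint genes consisted of 48 genes chosen by symbol, among them the cell division marker Mki67, the aurora and polo kinases, the chromosomal passenger proteins, the kinetochore and spindle checkpoint proteins, and the condensin subunits. All 48 symbols were among the 37074 gene names of the array, and 93 of its 56605 probes carried them. These genes and the further lists below were chosen with earlier results of these data known. Their counts beside shares of all genes are descriptions and no test of the lists. Liver RNA of nude mice, which lack a thymus, was measured on 1-colour Agilent arrays, with 1 liver per array and 3 livers in each of 2 groups. The sEV group received small extracellular vesicles from SW620, a human colorectal cancer line, by tail vein, with 20 µg in each of 10 injections over 21 days. The control group received sterile PBS on that schedule. Each group had 5 mice, the arrayed sEV mice were picked at random, and the background strain, age and sex of the mice are not given in the sources used here.

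When a cell enters mitosis, the cyclin B kinase and the aurora and polo kinases drive chromosome condensation and the building of the spindle, whose microtubules attach to each chromosome at its kinetochore. Kinetochores without attachment keep the spindle checkpoint active, which holds back the anaphase-promoting complex, a ubiquitin ligase, until every chromosome is attached. The complex and its activator Cdc20 then mark securin and the B cyclins for destruction, separase cuts the cohesin that holds sister chromatids together, and the chromosomes part. Most of these genes are transcribed late in the cell cycle, and resting cells hold them down through the DREAM complex. In adult liver most hepatocytes rest outside the cycle, and these genes are known chiefly from cells that divide.

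The mitotic genes were lower in the livers of vesicle-injected mice. In every one of the 48 genes all 3 sEV livers lay below all 3 control livers, a pattern that 10.4% of all 37074 gene names showed. Cdc20 was 36.7-fold lower, Ckap2, a spindle pole protein gene, was at least 38.3-fold lower, and Ccnf and Spc24 were less than 2-fold lower. A gene was called where its adjusted p in limma, a linear model fitted across all genes with Benjamini-Hochberg adjustment, was under 0.05. With all gene names in the fit and no filter on dim probes, those not well above background, 43 of the 48 genes were called lower and 0 higher, against 1.29% and 0.844% of all names, and Pbk, Ccnf, Spc24, Mybl2 and Bora were not called.

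The main fit kept probes that were well above background, by the scanner software's own flag, on at least 3 of the 6 arrays, and let the brightest kept probe stand for its gene. It covered 19447 genes, of which 7.99% were called lower and 8.96% higher, and 46 of the mitotic genes. Of these 46, 45 were called lower and only Mybl2 was not. The filter was passed by 18 of the 46 through their control arrays alone, so that a difference was built into their selection. Of the 24 mitotic genes that were well above background on all 6 arrays, 23 were called lower, against 8.37% of all genes in a fit limited to such probes. No mitotic gene had a difference above 0 under any setting tried.

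Values are given as normalized log2 signal, which is log2 of the processed signal minus the 75th percentile of its array, so that 0 stands for a spot as bright as that percentile. The median log2 fold change (sEV minus control) was -3.30 over the 46 kept genes and 0.03 over all 19447, and 93.5% of the 46 had a change of -1 or lower, against 3.09% of all. Fitted falls of at least 2-fold that were called made up 43 of the 46 genes (2.56% of all), and such falls of at least 8-fold made up 25 (0.386% of all), or 17 with dim genes at their bound. Among the 100 genes with the lowest fitted log2 fold change, 30 were mitotic genes. The brightest probe of 18 mitotic genes was well above background in all 3 controls and in 0 sEV livers, which held for 0.951% of all genes, and the probes of 20 mitotic genes were all dim in every sEV liver. For 17 of these the fold is a bound, written "at least", which takes the sEV level as no lower than the faintest signal well above background on the array, and for Dlgap5, Mastl and Bora the control level was itself too near that limit for a fold. With these genes at their bound the median of the 46 was -2.60, and 31 were at least 4-fold lower. Sizes depend on the background correction, and the bounds hold for the processed signal only. With normexp correction and an offset of 50 the median was -1.65, and 44 of the 46 were still called lower (8.85% of all genes). The exceptions were Mybl2 and Dlgap5. Falls with normexp correction could be smaller than the bounds. Ckap2 then fell by 3.55 on the log2 scale, where its bound is -5.26. Aunip changed by -1.57 and Aurkb by -1.22, where their bounds are -2.73 and -2.53. Among the 24 genes well above background on all 6 arrays the median was -2.57 in the main fit and -1.98 with normexp correction. For 8 of them, Cdc20, Ube2c, Cdca3, Plk1, Nek2, Nusap1, Ncapg and Top2a, the fold was over 1.5 times smaller.

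**Figure D1:**
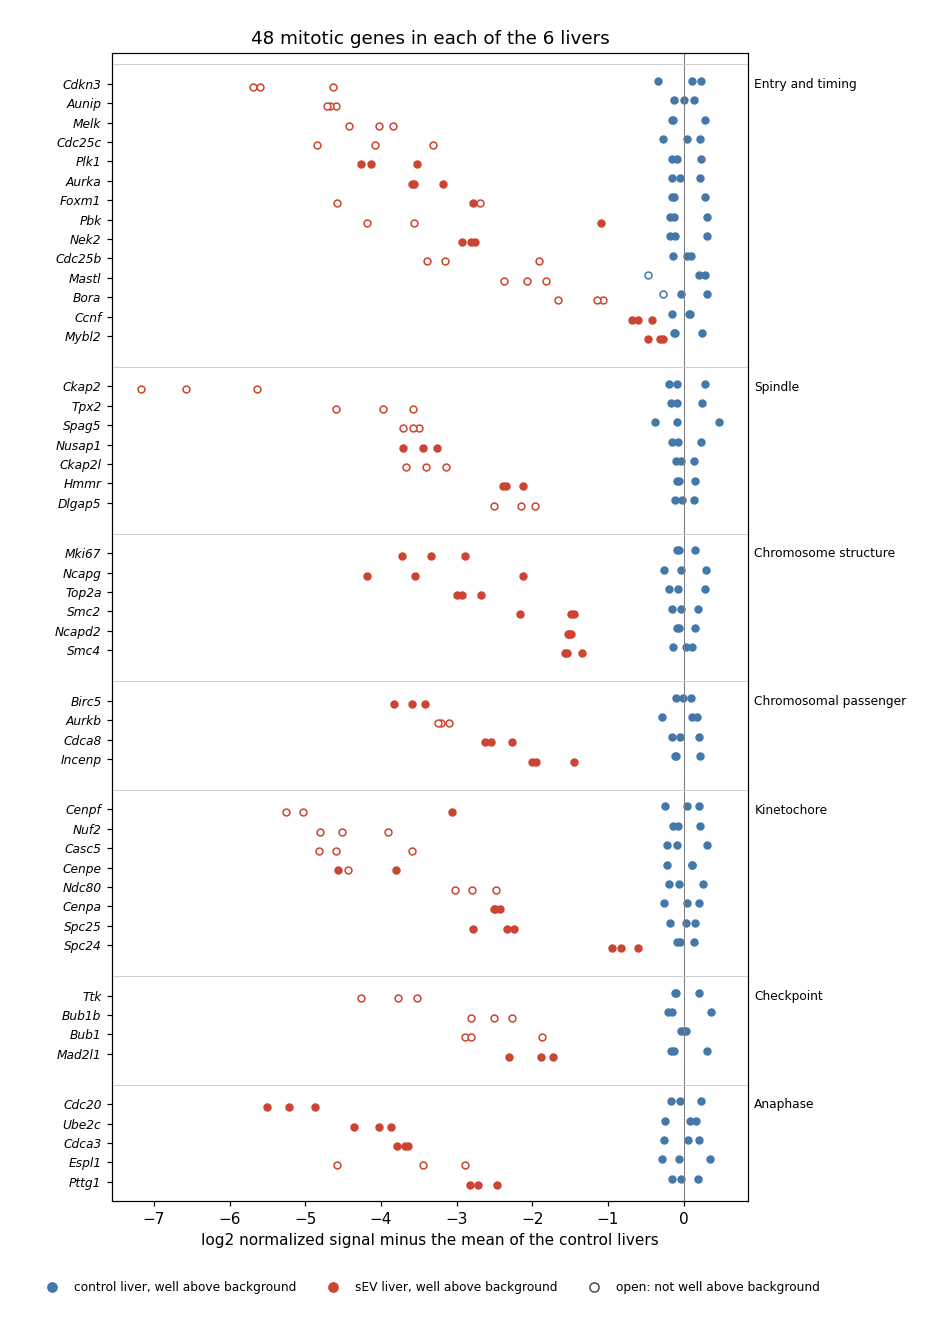
Normalized log2 signal of each of the 48 mitotic genes in each liver (1 row per gene, grouped by role), plotted as its difference from the mean of the 3 control livers; filled points were well above background and open points were not. In all 48 rows the red sEV points lie left of the blue control points, and in 20 rows all sEV points are open.

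The labelled tissue was checked with marker genes. All 9 hepatocyte markers on the array, such as Cps1 and Ass1 of the urea cycle, were well above background on every array. In whole tissue, fewer dividing cells and less of these transcripts per cell cannot be told apart. Between 49.9% and 54.7% of the spots that were not controls were well above background on each array, and arrays correlated at 0.991 to 0.995 across genes within a group and at 0.975 to 0.984 between groups. All arrays lay on 1 slide, with the 3 control arrays and sEV 1 in its row 1, and sEV 2 and sEV 3 in row 2. Within row 1, which leaves 1 sEV liver, the 46 genes kept differences below 0, from -6.58 to -0.31, and 43 were called, against 2.23% of all genes, in a fit that takes its spread from the controls and assumes that the lone sEV liver varies like them. With slide row as a block, where sEV 1 alone again carries the difference, 41 were called, against 2.47%, and the calls of Smc2, Foxm1, Pbk and Ccnf were lost.

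Promoters were compared because these genes moved together and because genes of this phase are known to share a promoter element, the cell cycle homology region, whose core reads TTTGAA and which is often found beside CCAAT boxes, the binding site of NF-Y. RefSeq windows of GRCm38.p6, from 250 bases before the annotated start to 50 after it, were at hand for 38 of the 48 genes. TTTGAA was found, on either strand, in 25 of the 38 windows (65.8%), against 17.9% of all 32851 windows of that length and 16.0% of those of protein coding genes. The variant TTCGAA was found in 4 (10.5%, against 1.56% of all windows), and CCAAT in 28 (73.7%, against 37.4%). Both TTTGAA or TTCGAA and CCAAT were in 25 windows (65.8%), against 7.52% of all. The 27 genes with TTTGAA or TTCGAA had a median log2 fold change of -3.32 and the 11 without had -3.47. A match describes these letters only and does not show that a factor binds there.

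The 150 bases before the start, written 5′ to 3′ on the strand of the gene, are shown for 5 genes with large falls and a match, for Ccnf, which has matches and a small fall, and for Birc5 and Mybl2, which have no match and a large and a small difference. Capitals mark TTTGAA or its complement TTCAAA, and CCAAT or its complement ATTGG.
Cdc20 (chr4:118437344-118437493, - strand): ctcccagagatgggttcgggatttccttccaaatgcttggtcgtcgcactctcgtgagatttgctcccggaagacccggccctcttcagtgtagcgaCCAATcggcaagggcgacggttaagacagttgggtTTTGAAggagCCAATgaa
Ckap2 (chr8:22185820-22185969, - strand): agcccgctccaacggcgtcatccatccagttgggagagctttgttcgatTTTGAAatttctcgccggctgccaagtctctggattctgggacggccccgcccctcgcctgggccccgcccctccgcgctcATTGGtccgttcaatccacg
Cdkn3 (chr14:46760391-46760540, + strand): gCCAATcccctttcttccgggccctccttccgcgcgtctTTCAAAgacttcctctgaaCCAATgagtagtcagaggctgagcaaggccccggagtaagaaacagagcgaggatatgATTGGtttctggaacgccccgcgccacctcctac
Ube2c (chr2:164769779-164769928, + strand): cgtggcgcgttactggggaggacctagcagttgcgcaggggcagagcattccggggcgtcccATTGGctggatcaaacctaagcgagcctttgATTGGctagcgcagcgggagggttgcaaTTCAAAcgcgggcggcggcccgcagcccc
Mki67 (chr7:135716380-135716529, - strand): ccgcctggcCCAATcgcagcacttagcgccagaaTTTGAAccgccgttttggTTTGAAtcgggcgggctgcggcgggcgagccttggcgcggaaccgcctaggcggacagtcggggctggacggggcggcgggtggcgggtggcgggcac
Ccnf (chr17:24251410-24251559, - strand): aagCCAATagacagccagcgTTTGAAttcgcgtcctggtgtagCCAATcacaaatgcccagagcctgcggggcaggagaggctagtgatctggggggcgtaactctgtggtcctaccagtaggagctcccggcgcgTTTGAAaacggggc
Birc5 (chr11:117849087-117849236, + strand): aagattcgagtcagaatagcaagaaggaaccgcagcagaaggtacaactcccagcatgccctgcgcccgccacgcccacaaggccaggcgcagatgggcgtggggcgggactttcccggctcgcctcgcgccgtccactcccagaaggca
Mybl2 (chr2:163054485-163054634, + strand): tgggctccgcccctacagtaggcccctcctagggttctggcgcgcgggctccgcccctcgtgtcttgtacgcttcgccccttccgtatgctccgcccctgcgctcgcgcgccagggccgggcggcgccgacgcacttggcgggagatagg

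The TTTGAA of Cdc20 began 18 bases before the start, between CCAAT boxes at 53 and 8 bases. In Ube2c the complement began 29 bases before the start and was preceded by ATTGG at 88 and 57 bases. In Ckap2, the gene with the lowest fitted change, TTTGAA lay 101 bases before the start and ATTGG at 20 bases. Mki67 held TTTGAA at 116 and 98 bases before the start. Ccnf held TTTGAA at 130 and 14 bases and CCAAT within 147 bases, so that the same letters stood before a gene that fell 1.48-fold. Birc5 and Mybl2 held none of the motifs in the whole window, and neither did Aunip, Mad2l1, Melk, Nuf2, Nusap1 and Pttg1.

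Of the 14 genes that time entry into mitosis, 11 were called lower among the 12 that were kept, with a median log2 fold change of -3.40. Beside this count and those of the groups below, 7.99% of all 19447 genes were called lower. Plk1, the polo kinase that acts on centrosomes, kinetochores and the cyclin B switch, measured 1.50, 1.12 and 1.19 in control livers 1 to 3 and -3.00, -2.26 and -2.87 in sEV livers 1 to 3. The groups lay far apart, and the highest sEV liver was below 0 while every control liver was above 1. Plk1 fell by 3.98 ± 0.22 (SE) on the log2 scale, 15.7-fold (limma adjusted p = 0.000343), or 8.14-fold with normexp correction. Aurka, the aurora kinase of spindle poles, measured 1.69, 1.32 and 1.42 in the controls and -2.12, -1.70 and -2.08 in the sEV livers, and fell by 3.44 ± 0.16 (SE), 10.9-fold (limma adjusted p = 0.000193). Aunip, which encodes a partner of Aurka, was well above background in all 3 controls at -1.47 ± 0.13 (SD, n = 3) and in 0 sEV livers, a fall of at least 6.61-fold. Its adjusted p was the lowest of the set (limma, 3.89e-05), with the 3 sEV livers close together (SD 0.06). Those 3 values lay at background, so their closeness is not a measured agreement between livers, and the p value rests in part on it.

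The 3 phosphatases of the set that act on cyclin-dependent kinases were not well above background in any sEV liver. Cdkn3, a phosphatase that acts on Cdk1 and Cdk2, measured 0.35, 0.24 and -0.22 in the control livers and -5.56, -4.51 and -5.47 in the sEV livers, where it was not well above background, and was at least 20.0-fold lower (limma adjusted p = 0.000463). Cdc25c, which removes the inhibiting phosphate from Cdk1, measured -0.90, -1.07 and -1.39 in the control livers and -5.21, -4.43 and -5.97 in the sEV livers, a fall of at least 8.44-fold. Cdc25b, a second such phosphatase, was well above background in the 3 controls but near that limit, at -3.22 ± 0.12 (SD, n = 3), and its bound is at least 1.97-fold.

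Foxm1, a transcription factor that drives many genes of this phase, measured -1.24, -1.68 and -1.65 in the controls and -4.30, -4.21 and -6.11 in the sEV livers. Only sEV 1 was well above background, and sEV 3 was lowest. The fitted fall was 10.2-fold (limma adjusted p = 0.0111) with all livers and 6.65-fold without sEV 3. Melk, a kinase gene often used as a proliferation marker, was at -2.40 ± 0.25 (SD, n = 3) in the controls and at least 3.48-fold lower in the sEV livers, where it was not well above background. Nek2, a kinase that splits the centrosome pair, was well above background everywhere and fell from -0.58 ± 0.26 to -3.41 ± 0.09 (SD, n = 3 each), 7.13-fold (limma adjusted p = 0.000306), or 2.98-fold with normexp correction.

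Pbk, a mitotic kinase gene, had the widest spread of the set among sEV livers. It measured -0.96, -1.46 and -1.40 in the controls and -5.46, -4.84 and -2.37 in the sEV livers, with sEV 3 well above background and the other two not. Its call (log2 fold change -2.95 ± 0.76 SE, limma adjusted p = 0.0453) was lost when any liver other than sEV 3 was left out, with adjusted p values from 0.0834 to 0.136. Without sEV 3 the call was kept (adjusted p = 0.00201) and the fall has only a bound, at least 8.32-fold. The fitted fall was 7.72-fold with all livers and 5.02-fold without sEV 1. Mastl, the Greatwall kinase, and Bora, an activator of Aurka, were well above background in 2 of 3 controls and in 0 sEV livers, so that they did not pass the filter. In the fit without the filter Mastl differed by -2.09 ± 0.25 (SE) on the log2 scale (limma adjusted p = 0.0221), and Bora differed by -1.29 ± 0.23 (adjusted p = 0.0542). Both differences rest on sEV values at background, so no fold can be given for either gene.

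Ccnf and Mybl2 had the smallest differences of all 48. Ccnf, the cyclin of a ubiquitin ligase that acts outside the cyclin-dependent kinases, measured 2.26, 2.02 and 2.27 in the controls and 1.58, 1.76 and 1.50 in the sEV livers, well above background on every array. Its groups did not overlap and the fall was 1.48-fold (limma adjusted p = 0.0232), but another kept probe of Ccnf differed by only -0.21, and the mean of its probes was not called (adjusted p = 0.155). The call of Ccnf was also lost without control 1, control 3, sEV 1 or sEV 3, with adjusted p values from 0.0517 to 0.0759. Mybl2, the B-Myb factor that works with Foxm1, measured -1.59, -1.94 and -1.95 in the controls and -2.14, -2.10 and -2.30 in the sEV livers, a difference of -0.36 ± 0.13 (SE) that was not called (limma adjusted p = 0.106).

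All 7 spindle genes were called lower, with a median of -3.47. Ckap2, whose product stabilises microtubules at spindle poles, measured 1.33, 0.97 and 0.86 in the control livers and -5.52, -4.58 and -6.11 in the sEV livers. Every control liver was brighter than 75% of the spots and 0 sEV livers were well above background, which gives the bound of 38.3-fold (limma adjusted p = 0.000463). Its relative Ckap2l was at least 2.29-fold lower, from a control level of -3.00 ± 0.12 (SD, n = 3). With normexp correction the log2 fold change of Ckap2l was -0.67, where its bound is -1.20. Tpx2, which activates Aurka on the spindle, measured -0.53, -0.94 and -0.86 in the controls and -4.75, -4.35 and -5.37 in the sEV livers, a fall of at least 10.7-fold (limma adjusted p = 0.000738). Spag5, the astrin of spindle poles and kinetochores, was likewise not well above background in any sEV liver and at least 4.44-fold lower.

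Nusap1, which bundles microtubules near chromosomes, was well above background in all livers. It measured -0.31, -0.69 and -0.61 in the controls and -4.25, -3.98 and -3.79 in the sEV livers, and fell by 3.47 ± 0.16 (SE), 11.1-fold (limma adjusted p = 0.000191), or 3.72-fold with normexp correction. Hmmr, the hyaluronan-mediated motility receptor, which also binds spindle microtubules, fell from 0.38 ± 0.13 to -1.91 ± 0.14 (SD, n = 3 each), 4.86-fold. The probes of Hmmr disagreed in size: the brightest gave -2.28, and the other kept probes gave -4.14 and -3.39 with 0 sEV livers well above background. Dlgap5, a microtubule-bundling protein gene, was well above background in the 3 controls, at -4.22 ± 0.12 (SD, n = 3), and in 0 sEV livers. No fold can be given for it, and its call (limma adjusted p = 0.000989) was lost with normexp correction (adjusted p = 0.0957).

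All 6 genes of chromosome structure were called lower, with a median of -2.28, and all 6 were well above background in every liver. Mki67, whose protein coats mitotic chromosomes and is the standard histological marker of dividing cells, measured 2.18, 1.95 and 1.96 in the controls and -1.70, -0.86 and -1.31 in the sEV livers. It fell by 3.32 ± 0.21 (SE) on the log2 scale, 9.96-fold (limma adjusted p = 0.000683), with sEV 2 the highest and sEV 1 the lowest of the sEV livers. Top2a, the topoisomerase that untangles sister chromatids, measured 0.60, 0.13 and 0.25 in the controls and -2.66, -2.35 and -2.60 in the sEV livers and fell 7.28-fold (limma adjusted p = 0.000335), or 4.23-fold with normexp correction.

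Condensin subunits divided by size of change. Ncapg, a subunit of condensin I, measured 0.33, -0.0018 and -0.23 in the controls and -4.15, -3.52 and -2.10 in the sEV livers and fell 9.77-fold (limma adjusted p = 0.0115), or 4.13-fold with normexp correction, with sEV 3 the least changed. Ncapd2, of the same complex, measured 1.26, 1.01 and 1.04 in the controls and -0.43, -0.38 and -0.42 in the sEV livers and fell 2.85-fold (limma adjusted p = 0.000632). The core ATPases Smc2 and Smc4, shared by both condensins, fell 3.24-fold and 2.80-fold. Smc4 measured 1.71, 1.63 and 1.46 in the controls and 0.05, 0.26 and 0.03 in the sEV livers, so that it stayed above 0 in all of them. The difference between subunits was not tested.

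All 4 genes of the chromosomal passenger complex, which corrects wrong attachments at centromeres and later directs the cleavage furrow, were called lower (median -2.83). Birc5, the survivin subunit, measured 3.15, 3.04 and 2.95 in the controls and -0.54, -0.38 and -0.79 in the sEV livers. These are tight groups with a wide gap, and Birc5 fell by 3.61 ± 0.13 (SE), 12.2-fold (limma adjusted p = 0.000136). Aurkb, the kinase of the complex, was at -1.67 ± 0.25 (SD, n = 3) in the controls and at least 5.76-fold lower in the sEV livers (limma adjusted p = 0.000162). Cdca8, the borealin subunit, measured 1.36, 1.11 and 1.01 in the controls and -1.38, -1.10 and -1.47 in the sEV livers and fell 5.57-fold. Incenp, the scaffold, had the smallest fall of the complex, 3.49-fold, with -0.44, 0.06 and -0.50 in the sEV livers.

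All 8 kinetochore genes were called lower, with a median of -3.52. Their fitted falls ran from 1.73-fold for Spc24 to 21.9-fold for Cenpf, which was well above background in only 1 sEV liver. Cenpa, the histone variant that marks the centromere, measured 0.68, 0.52 and 0.22 in the controls and -1.96, -2.01 and -2.03 in the sEV livers and fell 5.56-fold (limma adjusted p = 0.000334). Casc5, named Knl1 today, which carries the docking sites of the checkpoint, was at -1.38 ± 0.27 (SD, n = 3) in the controls and at least 7.06-fold lower in the sEV livers. Cenpe, the kinesin that carries chromosomes to the spindle equator, measured 0.80, 0.79 and 0.47 in the controls and -3.88, -3.12 and -3.75 in the sEV livers, 2 of which were well above background. It fell 19.3-fold (limma adjusted p = 0.000306), a log2 fold change of -4.27, or -2.73 with normexp correction.

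Cenpf, a protein of the outer kinetochore, measured -0.30, -0.75 and -0.45 in the controls and -5.75, -5.53 and -3.57 in the sEV livers. As with Pbk, sEV 3 was the one sEV liver well above background, and without it the fall has only a bound, at least 14.3-fold, against a fitted 21.9-fold with it (limma adjusted p = 0.00672). The 4 subunits of the Ndc80 complex, which binds microtubule ends, gave 2 bounds and 2 full folds. Nuf2 measured -0.26, -0.62 and -0.55 in the controls and -4.99, -4.39 and -5.28 in the sEV livers, a fall of at least 13.2-fold (limma adjusted p = 0.000335). Ndc80 itself was well above background in the 3 controls but near that limit, at -3.34 ± 0.23 (SD, n = 3), and its bound is at least 1.82-fold.

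Spc25 and Spc24, the other two subunits, stayed well above background in all livers. Spc25 measured 3.84, 3.72 and 3.50 in the controls and 1.44, 1.35 and 0.91 in the sEV livers and fell 5.47-fold (limma adjusted p = 0.000887), and another kept probe gave a like difference of -2.37. Spc24 measured 3.04, 2.87 and 2.82 in the controls and 1.97, 2.31 and 2.08 in the sEV livers. Its groups did not overlap, and its fall of 1.73-fold (limma adjusted p = 0.0112) was not called within slide row 1 (adjusted p = 0.0525) or without the filter on dim probes (adjusted p = 0.0536).

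All 4 spindle checkpoint genes were called lower, with a median of -2.53, and 3 of them were not well above background in any sEV liver. Ttk, the Mps1 kinase that starts checkpoint signalling, measured -1.73, -2.05 and -2.04 in the controls and -5.72, -5.47 and -6.20 in the sEV livers, a fall of at least 4.78-fold (limma adjusted p = 0.000334). Bub1, a kinase that Casc5 recruits, and Bub1b, the BubR1 subunit of the checkpoint's inhibitor complex, each had a bound of at least 3.75-fold. Mad2l1, the Mad2 subunit of that inhibitor, stayed measurable in all livers, at 0.99, 0.52 and 0.56 in the controls and -1.20, -1.04 and -1.63 in the sEV livers. It fell 3.94-fold (limma adjusted p = 0.00338). With normexp correction the log2 fold changes of Ttk and Bub1b were -1.18 and -0.80, where their bounds are -2.26 and -1.91.

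All 5 genes of the anaphase group were called lower, with a median of -3.71. Cdca3 was listed in this group although it acts in mitotic entry. Cdc20, the activator of the anaphase-promoting complex and the checkpoint's target, measured 3.33, 3.05 and 2.93 in the controls and -2.11, -1.77 and -2.40 in the sEV livers, all well above background. It fell by 5.20 ± 0.19 (SE), 36.7-fold (limma adjusted p = 0.000136), or 22.6-fold with normexp correction, and the other Cdc20 probe gave -4.99. Ube2c, the ubiquitin-conjugating enzyme of the same complex, measured 1.51, 1.09 and 1.42 in the controls and -3.02, -2.53 and -2.68 in the sEV livers and fell 16.9-fold (limma adjusted p = 0.000147), or 8.69-fold with normexp correction. Cdca3, which triggers mitotic entry by promoting destruction of the Wee1 kinase, measured 1.58, 1.43 and 1.12 in the controls and -2.27, -2.30 and -2.41 in the sEV livers and fell 13.0-fold (limma adjusted p = 0.000136), or 7.62-fold with normexp correction.

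Pttg1, securin, and Espl1, the separase it restrains, were both lower. Pttg1 measured 3.17, 2.93 and 2.82 in the controls and 0.51, 0.16 and 0.26 in the sEV livers and fell 6.35-fold (limma adjusted p = 0.000306), with every sEV liver still above 0. Espl1 measured -1.79, -2.44 and -2.21 in the controls and -6.73, -5.04 and -5.59 in the sEV livers, where it was not well above background, and was at least 4.15-fold lower (limma adjusted p = 0.00524).

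**Figure D2:**
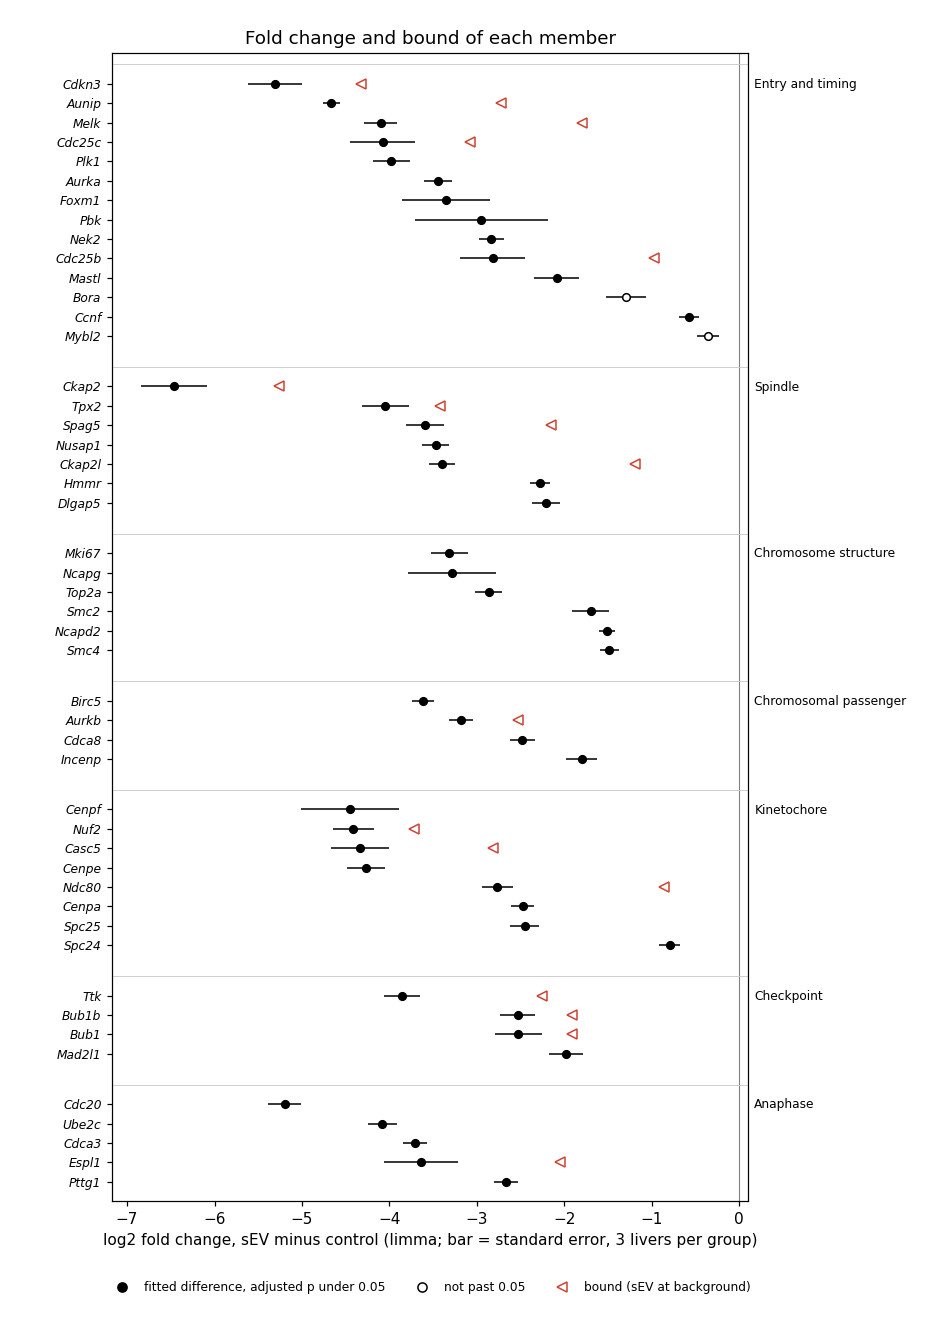
Fitted log2 fold change (sEV minus control, x axis) of the 48 mitotic genes by role, with its standard error from limma (3 livers per group); red triangles are the bounds of the 17 genes that were dim on every sEV array and could be bounded, and Mastl and Bora are from the fit without a filter. All 48 estimates lie below 0, from -6.46 for Ckap2 to -0.36 for Mybl2, and the bounds lie closer to 0 than the fitted values.

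Genes with several probes gave a check on the single values. Of the 48 genes, 28 had more than 1 probe and 18 had more than 1 that was kept, 40 probes in all. All 68 kept probes of the set were lower in sEV livers, with differences of group means from -6.46 to -0.21. For probes that passed the filter through their control arrays alone, this direction was built into their selection. The probes of Incenp (-1.80 and -1.83), Smc4 (-1.49, -1.46 and -1.34) and Top2a (-3.31, -2.86 and -2.79) lay close together. The Top2a probes that gave -3.31 and -2.79 were well above background in 0 sEV livers, so that their sizes depend on the floor. Those of Birc5 (-4.35 and -3.61), Cdkn3 (-5.31 and -4.56) and Casc5 (-4.33 and -3.24) differed more, and at least 1 probe of each was near background in sEV livers.

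**Figure D3:**
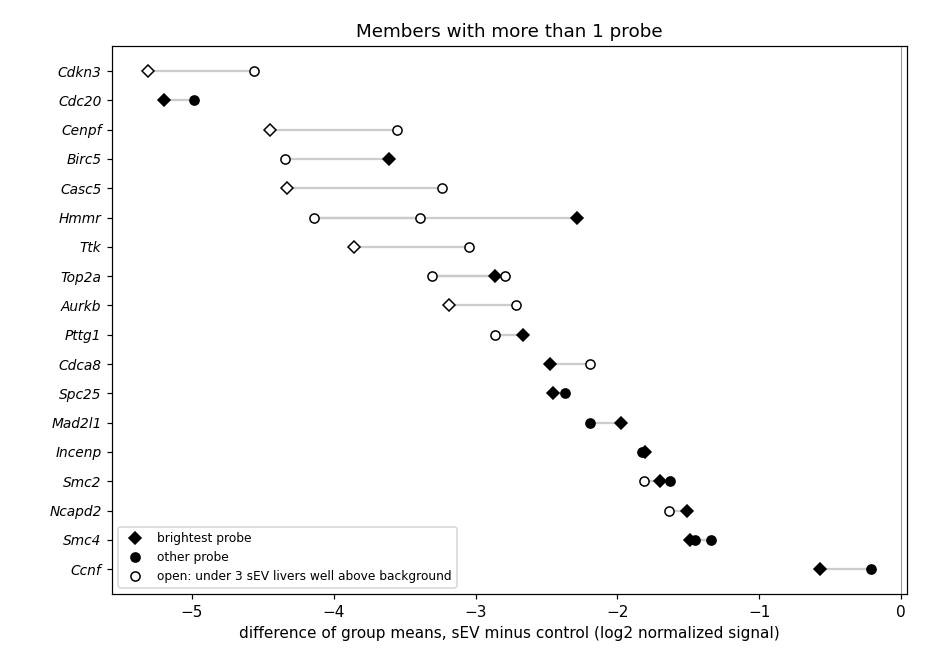
Difference of group means (sEV minus control, normalized log2 signal) for each kept probe of the 18 mitotic genes with more than 1 kept probe; diamonds are the brightest probe, circles the others, and open symbols had under 3 sEV livers well above background. All 40 probes lie below 0, which was built into the selection of those kept through their control arrays alone. The widest gap between probes of 1 gene is that of Hmmr, from -4.14 to -2.28.

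Other genes of the same machinery, from lists by function, had mixed calls. Beside them, 7.99% of all 19447 genes were called lower and 8.96% higher, or 1.29% and 0.844% of all names without the filter on dim probes. Among 19 further regulators of mitotic entry, 9 were called lower and 2 higher, with a median log2 fold change of -0.88. Ccnb1, the cyclin B1 that drives entry, was at least 24.0-fold lower (limma adjusted p = 0.000335), and Ccnb2 fell by 4.14 ± 0.16 (SE). With normexp correction the log2 fold change of Ccnb1 was -2.85, where its bound is -4.58. Ccna2, the cyclin A of S phase and G2, fell by 4.40 ± 0.25 (SE), with 2 sEV livers well above background. Rises were called for Plk3, a stress-responsive polo kinase, at 1.14 ± 0.17 (SE; limma adjusted p = 0.0104) and for Cdkn1a, the p21 inhibitor, at 1.11 ± 0.23 (SE; adjusted p = 0.0269), and within slide row 1 neither was called (adjusted p = 0.0709 and 0.104). Cdkn1a measured 1.80, 0.99 and 1.35 in the controls and 2.79, 2.29 and 2.37 in the sEV livers without overlap. Its call was lost in the fit blocked on slide row (adjusted p = 0.0760) and when any liver except control 1 was left out.

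Of 33 further kinetochore and checkpoint genes, 21 were called lower, 1 higher and 11 neither, with a median of -1.17. Sgol1, the shugoshin that protects centromeric cohesin, was at least 11.3-fold lower. With normexp correction its log2 fold change was -1.97, where its bound is -3.50. Cenpp, of the constitutive centromere network, fell by 2.44 ± 0.13 (SE) and Nsl1, of the Mis12 complex, fell by 2.04 ± 0.12. Mad1l1, the Mad2 anchor, was the 1 gene called higher, at 0.42 ± 0.10 (SE; limma adjusted p = 0.0399), and its call was lost with median scaling (adjusted p = 0.0847). With slide row as a block 14 were called lower and 0 higher, without the filter on dim probes 15 and 0, and with normexp correction the median was -0.51.

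Of 23 further spindle and centrosome genes 13 were called lower and 0 higher (median -0.58), or 5 with slide row as a block and 7 without the filter on dim probes, and at an unadjusted p under 0.05 the count higher was 0. Tacc3, which steadies spindle microtubules, fell by 2.53 ± 0.11 (SE), Plk4, the kinase of centriole duplication, fell by 2.65 ± 0.26, and Psrc1 was at least 3.52-fold lower. Plk4 was well above background in 1 sEV liver, and its log2 fold change was -0.96 with normexp correction. That of Psrc1 was then -1.10, where its bound is -1.81. Among 17 further condensin, cohesin and chromosome genes, 8 were called lower and 0 higher, with a median of -0.16, and 2 were higher at an unadjusted p under 0.05. The condensin I subunit Ncaph fell by 2.73 ± 0.18 (SE), Cdca2 was at least 4.75-fold lower, and the chromokinesin Kif4 was at least 2.85-fold lower. With normexp correction the log2 fold changes of Cdca2 and Kif4 were -1.06 and -0.84, where their bounds are -2.25 and -1.51.

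Subunits of the anaphase-promoting complex had values nearer 0. Of 13, 2 were called lower, 0 higher and 11 neither, with a median of -0.16, where 7.99% of all genes were called lower and 8.96% higher. Anapc4 fell by 0.50 ± 0.08 (SE; limma adjusted p = 0.0126) and Cdc23 fell by 0.46 ± 0.08 (adjusted p = 0.0188). At an unadjusted p under 0.05 the count was 3 lower and 0 higher. Neither of the 2 was called with slide row as a block or without the filter on dim probes. A list of 20 genes covered the DREAM, MuvB and E2F complexes, which turn mitotic genes on and off. It also held the NF-Y subunits and the kinase gene Dyrk1a. Of the 20, 7 were called lower, among them Nfyb, and 1 higher (median -0.30). The counts were 2 and 0 with slide row as a block and also without the filter on dim probes. E2f1 fell by 1.45 ± 0.13 (SE), E2f2 fell by 1.15 ± 0.14 and Lin9, a MuvB subunit, fell by 0.92 ± 0.14. The call of Lin9 was lost with the mean of its kept probes (-0.37, adjusted p = 0.0816), and those of Lin9 and E2f2 in the fit blocked on slide row (adjusted p = 0.107 and 0.0587). Rbl2, the p130 pocket protein of the repressing form, was higher by 0.57 ± 0.11 (SE; limma adjusted p = 0.0226), with -0.94, -0.82 and -0.89 in the controls and -0.19, -0.52 and -0.24 in the sEV livers, a call that was lost in the fit blocked on slide row (adjusted p = 0.0773).

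**Figure D4:**
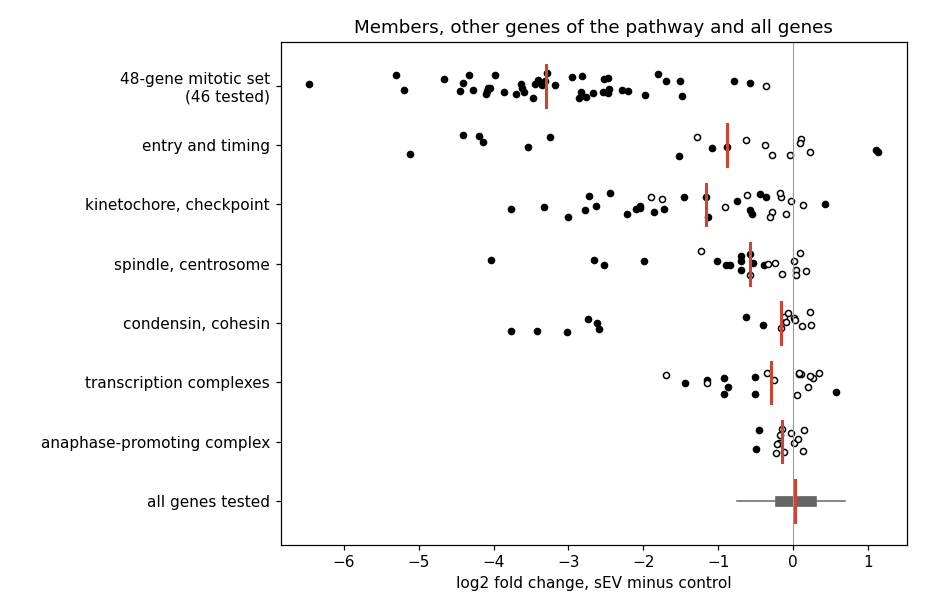
Log2 fold change (sEV minus control, x axis) of each gene tested in the mitotic set and in 6 lists of other genes of the machinery; filled points had a limma adjusted p under 0.05, red bars are medians, and the last row gives the median, the middle 50% (box) and the middle 90% (line) of all 19447 genes. The mitotic set has its median at -3.30, the kinetochore list at -1.17 and the anaphase-promoting complex at -0.16, beside 0.03 for all genes.

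Markers of other cell types were measured beside these falls, and their part in them was not tested. Their counts stand beside 7.99% of all 19447 genes called lower and 8.96% called higher. Of 10 erythroid precursor markers kept, of 12 on the array, 5 were called lower and 0 higher, and their summed linear signal, relative to the 75th percentile, was 13.5 to 17.2 in control and 7.14 to 11.7 in sEV livers. Alas2, the brightest of them at a control mean of 3.41, weighs most in this sum and was not called (limma adjusted p = 0.115). Ahsp, the alpha globin chaperone, fell by 3.59 ± 0.34 (SE) and Rhd was at least 2.05-fold lower. Ahsp was well above background in 1 sEV liver, and its log2 fold change was -1.92 with normexp correction. That of Rhd was then -0.55, where its bound is -1.04. Of 6 B lineage markers kept, of 10 on the array, 3 were called lower and 0 higher, with sums of 1.38 to 1.86 and of 0.909 to 1.20. Cd79b, of the B cell receptor, fell by 1.02 ± 0.20 (SE) and Ms4a1 (CD20) was at least 2.04-fold lower, while Cd79a, Igll1 and Rag1 were dim on all 6. With normexp correction the log2 fold change of Ms4a1 was -0.43, where its bound is -1.03.

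Of 9 granulocyte precursor markers 6 were called higher and 0 lower, with sums of 7.58 to 15.3 in control and 29.7 to 53.9 in sEV livers. For this and the lists that follow, the shares of all genes are again 8.96% higher and 7.99% lower. Ctsg and Elane, neutrophil serine proteases, were higher by 2.09 ± 0.25 and 1.32 ± 0.17 (SE) on the log2 scale. Of 8 Kupffer cell markers 3 were called higher and 0 lower, with sums of 85.9 to 114 and of 119 to 132, and of 7 T and NK markers kept, of 9 on the array, 2 were called higher and 1 lower, with sums of 16.9 to 21.1 and of 15.4 to 16.0, and Klrb1c dim on all 6 arrays. Cd4, the T and NK marker called lower, was the brightest of that list at a control mean of 3.99 and weighs most in its sum. Of 8 stellate cell markers 2 were called lower and 0 higher, where Col1a1 fell by 2.04 ± 0.36 and Lrat fell by 1.09 ± 0.17 (SE), with sums of 70.5 to 97.5 and of 58.0 to 78.8. Of 7 endothelial and 5 cholangiocyte markers 0 were called, with sums of 35.9 to 52.9 and 35.3 to 44.7 for the first and of 5.19 to 8.93 and 5.00 to 5.45 for the second list. Hepatocyte markers had 3 of 9 called higher and 0 lower, among them Cps1 and Ass1, with sums of 3688 to 4081 and of 4090 to 4949. At an unadjusted limma p under 0.05 the counts of 0 remained 0 for the erythroid, granulocyte, B lineage, Kupffer, stellate, endothelial and cholangiocyte lists, and 1 hepatocyte marker was lower.

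Calls of markers were fewer under other settings, and of all gene names without the filter 1.29% were called lower and 0.844% higher. Without the filter on dim probes 2 erythroid, 0 B lineage and 1 stellate marker were called lower and 2 hepatocyte, 2 granulocyte, 0 Kupffer and 1 T and NK marker higher. Cd79b (adjusted p = 0.0803), Ms4a1 (0.0752) and Col1a1 (0.0607) were among those lost. With slide row as a block 2 erythroid and 2 B lineage markers were called lower and 1 hepatocyte marker higher, and of the granulocyte, Kupffer, stellate and T and NK markers 0 were called.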

How the data were processed

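Cy3-labelled RNA of 6 livers was hybridised to 1 array each. The submitters' processing notes name Agilent Feature Extraction 10.7.1.1 as the scanner software. Deposited are its processed intensity, from which background and spatial trends had been removed per the file headers, with a surrogate in place of low signals and arrays left unscaled, and the mean and background intensity per spot. A deposited table of log2 values, whose making the sources used here do not describe, served as an alternative, and its columns correlated with log2 of the processed intensity (lowest r 0.9995).

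Control and flagged spots (91 to 171 per array) were left out, spots of 1 probe were averaged, and log2 of the processed intensity minus the array's 75th percentile was taken. The percentile was 434 to 500 on control and 391 to 418 on sEV arrays, and 0 spots were saturated. Probes had to be well above background on 3 of 6 arrays. limma 3.58.1 in R 4.3.3 was fitted without covariates over 19447 genes. With 3 livers a group, exact permutation allows no p below 0.1. For a bound, the control mean was set against the sEV mean, each sEV array entering with the probe's own signal or, where brighter, the faintest signal well above background. A bound holds for this processed intensity only. P values measure the spread between these livers. For genes not well above background in sEV livers, part of that spread is the spread of background signal.

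Members, roles, pathway and marker lists were chosen with earlier results of these data known. All members are named, with up to 3 genes per pathway list and direction among those past 0.05, and up to 2 per marker list, by size of the moderated t. Alas2 and Cd4 are named for their weight in the sums. Alternatives changed background correction, scaling, filter, probes per gene, variance model, value table, slide row and replicate block, and left out each array. Promoters were searched on both strands with Python 3.11.15, and figures were drawn with matplotlib 3.10.9.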

Additional observations from a re-analysis of the deposited data

How the results depend on the processing

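No mitotic gene changed direction under any alternative. Of 19447 genes, 3296 were called, against 791 without the filter on dim probes, 722 with slide row as a block, 607 within slide row 1, and 1318 to 2823 when 1 array was left out. With the replicate block 2157 genes and 43 mitotic genes were called. Pbk (adjusted p = 0.0713) and Ccnf (0.0665) were lost. The replicate numbers were not taken as pairs, because deviations of same-numbered livers correlated at 0.02, 0.16 and 0.02, and not every liver correlated best with its own number. Of the 46 mitotic genes kept, 45 were called, or 43 to 44 without 1 array. With probes well above background on all arrays, 23 of the 24 left were called and the median log2 fold change was -2.57, where fewer genes were tested. The median of -3.30 was -1.65 with normexp correction, -2.60 with bounds and -3.54 with slide row as a block, and -3.38 to -3.14 without 1 array. The floor of dim probes limits the size of the falls of dim genes. Median scaling moved the median of all genes from 0.03 to -0.03.

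Calls of single mitotic genes were lost as follows, beside those lost without 1 array. With slide row as a block these were Smc2 (-1.45, adjusted p = 0.0638), Foxm1 (-2.78, 0.0988), Pbk (-4.19, 0.0735) and Ccnf (-0.61, 0.125). Within slide row 1 they were Ccnf (0.130) and Spc24 (0.0525). Without the filter they were Pbk (0.126), Ccnf (0.0965) and Spc24 (0.0536). Pbk was lost with trended and robust variance (0.0563), Ccnf with the mean of its probes (0.155) and Dlgap5 with normexp correction (0.0957). The cause was not tested. The slide row fits rest on 1 sEV array.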

Other observations

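Within groups, the mitotic genes did not scatter evenly over the livers. The counts that follow have no share over all genes beside them, so they are not shown to be particular to the mitotic genes. Control 1 was the highest of the 3 controls for 42 of the 46 genes kept, with a median deviation of 0.21 from the control mean, against -0.11 in control 2 and -0.10 in control 3. Among the sEV livers, sEV 2 was the highest for 29 of the 46 genes, with a median deviation of 0.19, and sEV 3 was the lowest for 24 of them. These counts include genes that were dim in every sEV liver, whose order is not a measured one. For 8 genes (Pbk, Cenpf, Ncapg, Nusap1, Cdc25b, Ckap2l, Melk and Dlgap5) sEV 3 was the highest of the sEV livers. Of these, Cdc25b, Ckap2l, Melk and Dlgap5 were not well above background in any sEV liver. The median deviations within a group are small beside the median difference of -3.30 between groups.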
